A study of Solanum lycopersicum with 24 samples.

Results

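ELIP (NM_001320256.1), which encodes an early light-induced protein, and CRY3 (NM_001309375.1), which encodes a cryptochrome, are 2 of the 45845 transcripts in a table of tomato leaf RNA. They were selected on their readout in total RNA, where both were high in hardened leaves and much lower in hardened leaves that then met 0 °C. Their levels in total RNA of the Hardening and Combo libraries are therefore given as a description, with no test. Each of the 2 genes has 1 transcript in the table. RNA of Solanum lycopersicum line YaLF was sequenced from 24 libraries, 2 for each of 4 conditions in each of 3 fractions: total RNA, polysomes (mRNA carrying several ribosomes) and monosomes (mRNA carrying a single ribosome). All plants were 28 days old and grew under a 16 h photoperiod, by the labels at 25 °C and a light of 100 µmol photons. Combo plants were hardened for 5 days and then kept at 0 °C for 2 h, and Stress plants were kept at 0 °C for 2 h with no hardening before it. Hardening plants were hardened for 5 days at 6 °C by the labels, and at 4 °C by the methods of the study, and Control plants met no cold, with a control temperature of 22 °C in the methods. By the labels the light was 200 µmol photons in the hardening chamber, above their own value for growth, whereas the methods give 200 µmol photons for both. If the labels hold, low temperature and stronger light cannot be told apart in hardened plants. The light during the 2 h at 0 °C is not given in the sources used here. Hardening and Control leaves were taken 8 h after the lights came on, and the leaves of Combo and Stress plants after a further 2 h, the time of their cold treatment.

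Early light-induced proteins are thylakoid membrane proteins related to the chlorophyll a/b-binding proteins of the light-harvesting antenna. In many plants they accumulate for a short time under strong light, above all in the cold, and are thought to bind free chlorophyll and so limit photooxidative damage. CRY3 belongs to the CRY-DASH branch of the blue-light receptor and photolyase family. In Arabidopsis the CRY3 protein is found in chloroplasts and mitochondria and repairs ultraviolet damage in single-stranded DNA. Genes of both kinds respond to light in other plants, and light-driven transcripts also change over the day.

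The levels are TPM, a share of all transcripts in a library that is set per transcript length and can be compared between genes. The deposited table holds no read counts, so no counting error can be set beside a single value. The study's own read table gives one of the Stress monosome libraries far fewer reads than the others. Leaf markers summed to between 11892 and 63978 TPM in total RNA, against at most 530 TPM for fruit markers and 47.7 TPM for root markers. The 10 most abundant transcripts took 55.7 to 60.02% of all TPM in Control polysomes and 64.4 to 68.9% in Control monosomes, against 11.0 to 12.5% in Combo polysomes and 6.67 to 15.9% in total RNA. Differences between groups were therefore taken after scaling the libraries by a trimmed mean, as log2(scaled TPM + 1), and the added 1 shrinks the change of low transcripts such as CRY3. A transcript is said to have risen or fallen where limma's adjusted p was under 0.05 and the log2 difference was over 1 or under -1.

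The labels of the ribosome fractions have to be read with care. LE25, a late embryogenesis abundant protein gene, was at 1727 to 1883 TPM in Combo, 0.925 to 1.43 TPM in Stress, 861 to 1003 TPM in Hardening and 1.54 to 2.66 TPM in Control leaves in total RNA. In polysomes it was at 648 to 765 TPM in the libraries labelled Combo, 497 to 583 TPM in those labelled Stress, 2.43 to 3.92 TPM in those labelled Hardening and 0.735 to 1.52 TPM in Control, and in monosomes too it was high where the label was Combo or Stress and low elsewhere. CBF1, the cold-induced transcription factor, was at 186 to 195 TPM in Stress and 2.60 to 3.23 TPM in Hardening in total RNA, against 3.22 to 4.60 TPM in polysomes labelled Stress and 232 to 236 TPM in polysomes labelled Hardening. For these genes the polysome and monosome libraries labelled Stress thus resembled hardened leaves, and those labelled Hardening did not. The labels are kept as given, Combo is set against both of them, and the contrast of Combo with Control rests on neither. CBF1 was, however, also higher in Control polysomes, at 67.5 to 88.0 TPM, than in Control total RNA, at 8.17 to 12.2 TPM. In Combo it was at 6.01 to 14.7 TPM in polysomes and 10.9 to 12.5 TPM in total RNA. Of the 2 genes, only LE25 was low in Control in both fractions.

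**Figure D1:**
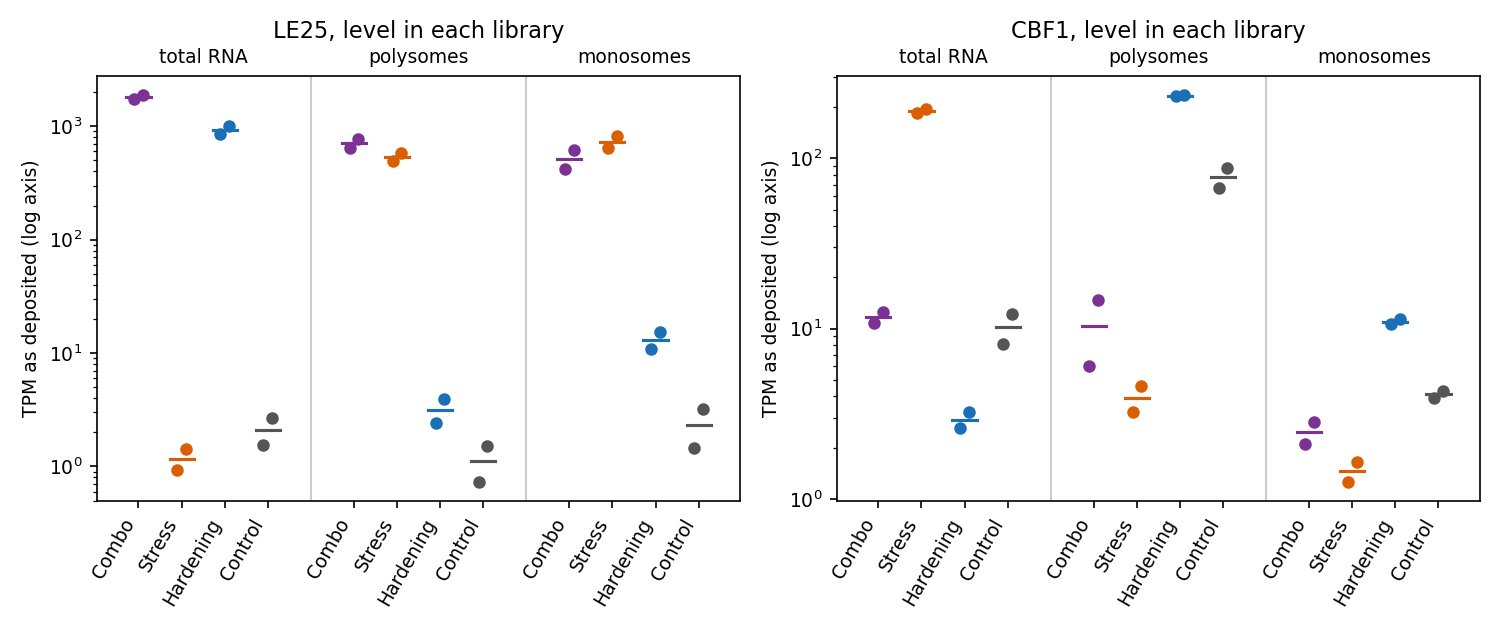
TPM of LE25 and CBF1 as deposited (log axis) in each library, by fraction and labelled condition, with points for libraries and short lines for means of 2. LE25 is high in Hardening and low in Stress in total RNA, and the other way round in polysomes and monosomes.

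In total RNA ELIP was highest in Hardening leaves and fell back in Combo leaves. Its level was 395 and 421 TPM in the 2 Combo libraries, 79.3 and 81.6 TPM in Stress, 2285 and 2581 TPM in Hardening, and 86.4 and 80.2 TPM in Control. In the Hardening libraries ELIP was the transcript of rank 23 and 18 by TPM. In Combo it ranked 453 and 403, and in Control 1584 and 1656. Mean TPM in Hardening was 29.2 times that in Control, and mean TPM in Combo was 16.8% of that in Hardening but still 4.90 times that in Control. The fitted log2 difference was -2.54 ± 0.08 (SE) for Combo against Hardening, 1.97 ± 0.08 for Combo against Control and 4.52 ± 0.08 for Hardening against Control.

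CRY3 had the same peak at a far lower level, and in Combo it was near Control. Its level was 5.35 and 4.99 TPM in Combo, 6.07 and 5.48 TPM in Stress, 33.7 and 32.3 TPM in Hardening, and 3.82 and 3.54 TPM in Control. Mean TPM in Hardening was 8.97 times that in Control, and mean TPM in Combo was 15.7% of that in Hardening and 1.40 times that in Control. The fitted log2 difference was -2.42 ± 0.11 (SE) for Combo against Hardening, 0.15 ± 0.11 for Combo against Control (0.40 on TPM as deposited) and 2.57 ± 0.11 for Hardening against Control. Both members were chosen for a large fall in Combo against Hardening, so the similar share that remained follows from the choice. As a description, ELIP alone kept a Combo level several times that of Control. In bulk leaf RNA, fewer cells with a transcript and less of it per cell cannot be told apart.

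**Figure D2:**
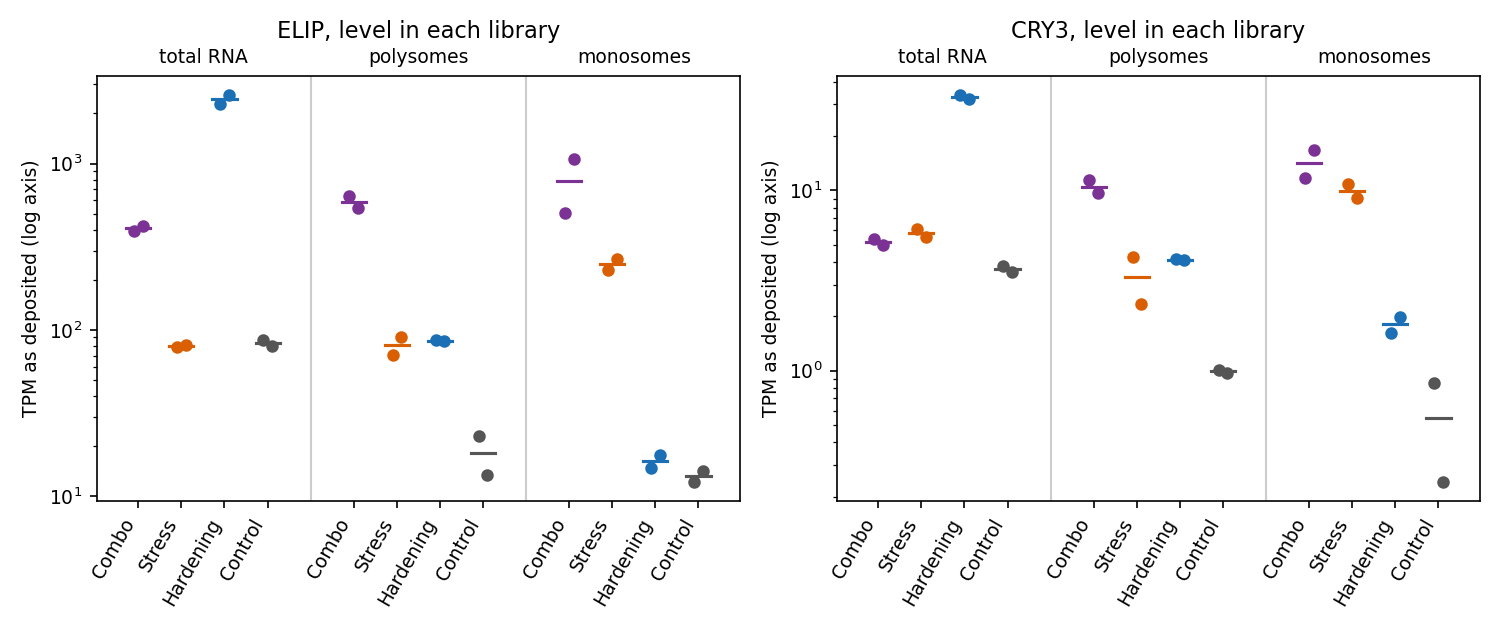
TPM of ELIP and CRY3 as deposited (log axis) in each of the 24 libraries, by fraction and labelled condition, with points for libraries and short lines for means of 2. Hardening is highest in total RNA (2285 and 2581 TPM for ELIP), whereas Combo is highest in polysomes and monosomes for both genes.

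The members were chosen for this fall in Combo against Hardening, so their place among other transcripts follows from the choice and is given only as its limit, for named transcripts with a mean of at least 10 TPM over the 8 total RNA libraries. CRY3, with a mean of 11.9 TPM, was above that minimum only through its Hardening level, and so was CHS1, named below. Just outside came F3'H, the flavonoid 3'-hydroxylase gene, with a log2 difference of -2.11, CHS1, a chalcone synthase gene of the first step of flavonoid synthesis, with -2.06, and VDE, the violaxanthin de-epoxidase gene of the xanthophyll cycle, with -1.99. MYB12, a regulator of flavonol synthesis, had a larger difference than either member, -2.58, and was left out only by its mean of 7.65 TPM. These genes did not share one pattern. CHS1 was at a mean of 9.91 TPM in Combo, 3.28 in Stress, 45.6 in Hardening and 5.24 in Control, with a Hardening peak like that of the members. VDE was at 6.35 TPM in Combo, 25.4 in Stress, 29.0 in Hardening and 24.0 in Control, so that only Combo stood apart, and F3'H was likewise low in Combo alone, at 4.06 TPM against 16.1 TPM in Control.

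A single cold step in plants that had not been hardened was tested in total RNA. The fall that chose the members lay between the other groups, Combo and Hardening. Stress and Control entered the choice only through the mean over the 8 libraries and the shared estimate of spread. The test is therefore not fully separate from the choice. This contrast of Stress with Control carries the same 2 h at 0 °C and the same 2 h delay in collection as that of Combo with Hardening. Neither member passed the test, against 4.19% of the 21979 transcripts tested in either direction. ELIP overlapped between the groups, with a log2 difference of -0.20 ± 0.08 (SE, 95% interval -0.39 to 0.00404, limma adjusted p = 0.173). CRY3 was higher in both Stress libraries than in either Control library, with a log2 difference of 0.42 ± 0.11 (95% interval 0.16 to 0.68, limma adjusted p = 0.0509). With the replicate number as a block, that adjusted p was 0.0144 in limma, with the difference still inside the fold threshold. These unhardened leaves held only the Control level, a mean of 83.3 TPM for ELIP and 3.68 TPM for CRY3. In Hardening the means were 2433 and 33.0 TPM. A loss of transcript gained in hardening could therefore not show in this contrast, and no conclusion on the fall in Combo is drawn from it. The 95% intervals of ELIP and CRY3 are unadjusted and measure only the spread between 2 libraries per group. The members were chosen for the fall in Combo. Taken as a description, Combo against Hardening minus Stress against Control was -2.35 ± 0.12 for ELIP and -2.84 ± 0.15 for CRY3 on the log2 scale. Within hardened plants the move to 0 °C and the later hour were never separated, so for the loss in Combo they cannot be told apart.

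Few clock genes could be read beside the members. Of the circadian clock list, 3 genes carried a symbol in the names table, with 6 transcripts tested. Of these, 1 rose and 0 fell in Stress against Control with limma (2.09% and 2.10% of all transcripts tested). At an unadjusted limma p under 0.05, 2 were higher and 1 lower. Of all 21979 transcripts, 6586 had such a p in either direction. The transcript that rose was CO1, a CONSTANS-type gene under daily control, at 45.5 ± 2.70 TPM in Stress and 17.4 ± 0.601 TPM in Control (SD, n = 2 libraries each), a log2 difference of 1.20 (limma adjusted p = 0.00153). In Combo against Hardening CO1 was lower, at 12.2 ± 1.59 TPM in Combo and 21.2 ± 0.520 TPM in Hardening, a log2 difference of -0.72 (limma adjusted p = 0.00648) that stayed inside the fold threshold. CO3 differed by 0.00228 in Stress against Control and by 0.15 in Combo against Hardening. The 4 transcripts of LNK1, which promotes evening genes in Arabidopsis, ranged from -1.14 to 1.37 in Stress against Control and from -0.25 to 0.90 in Combo against Hardening, and none passed the test. Their part in the levels of ELIP and CRY3 was not tested.

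In polysomes the members had another order, with Combo highest. ELIP was at 639 and 537 TPM in Combo, 71.0 and 90.3 TPM in libraries labelled Stress, 86.9 and 85.5 TPM in those labelled Hardening, and 23.0 and 13.4 TPM in Control. Both Combo libraries lay far above all others, those labelled Stress and Hardening overlapped, and Control was lowest. ELIP rose in Combo against Control by a log2 difference of 3.35 ± 0.24 (SE, limma adjusted p = 8.83e-05), where 21.8% of the 17757 transcripts tested rose. It also rose in Combo against the libraries labelled Hardening, by 2.25 ± 0.24 (limma adjusted p = 0.000427), where 18.2% of all transcripts rose, and against those labelled Stress, by 2.38 ± 0.24 (limma adjusted p = 0.00142), where 12.1% rose. Whichever of the disputed labels is taken for hardened leaves, the polysomes showed no loss of ELIP in Combo.

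The smaller steps of ELIP in polysomes were less firm. Libraries labelled Hardening exceeded Control by 1.09 ± 0.24 (SE, limma adjusted p = 0.0486), in a contrast where 2% of all transcripts rose. That call was lost without the first (1.05, adjusted p = 0.265) or the second (1.38, adjusted p = 0.160) Hardening library, and under 5 other settings, the replicate block among them (limma adjusted p = 0.0768). Libraries labelled Stress differed from Control by 0.97 ± 0.24 (limma adjusted p = 0.0132), just inside the fold threshold, where 41.4% of all transcripts passed in either direction. The value reached 1.52 without the first Control library, 1.19 without the first Stress library and 2.13 on TPM as deposited. Stress against Hardening was -0.13 ± 0.24 (95% interval -0.70 to 0.45, limma adjusted p = 0.675), where 43.3% passed, and its sign turned without the first Stress library, to 0.10.

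CRY3 in polysomes followed ELIP with smaller fitted steps, which the added 1 shrinks at its low level. On TPM as deposited, the mean in libraries labelled Hardening was 4.16 times that in Control for CRY3 and 4.74 times for ELIP. The same ratio was 3.33 and 4.43 for libraries labelled Stress, and 10.6 and 32.3 for Combo. These ratios are not scaled, and the median log2 difference of all transcripts in Combo against Control was then 1.44. CRY3 was at 11.4 and 9.61 TPM in Combo, 4.25 and 2.35 TPM in libraries labelled Stress, 4.14 and 4.10 TPM in those labelled Hardening, and 1.01 and 0.967 TPM in Control. Combo again lay above all others, and Control below. CRY3 rose in Combo against Control by 1.34 ± 0.23 (SE, limma adjusted p = 0.00332). Combo against Stress was 1.002 ± 0.23 (limma adjusted p = 0.0230), a rise at the very edge of the threshold that was lost without the second Stress library (0.72) and without the first (0.87) or the second (1.11) Combo library. Combo against Hardening was 0.70 ± 0.23 (95% interval 0.14 to 1.26, limma adjusted p = 0.0447), inside the fold threshold, and 1.16 on TPM as deposited. Hardening against Control was 0.64 ± 0.23 (limma adjusted p = 0.154) and Stress against Control 0.34 ± 0.23 (95% interval -0.22 to 0.90, limma adjusted p = 0.254). These last contrasts reached 1.36 and 1.08 on TPM as deposited, where the median of all transcripts moved to 0.98 and 0.83. Stress against Hardening was -0.30 ± 0.23 (limma adjusted p = 0.312).

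The cold step after hardening was set against the cold step without it in one term, Combo against Hardening minus Stress against Control. In polysomes this term was 1.28 ± 0.34 for ELIP (SE, limma adjusted p = 0.0628) and 0.36 ± 0.33 for CRY3 (limma adjusted p = 0.542), and neither passed, against 8.4% of all transcripts. With transcripts summed by gene the term of ELIP was 1.30 and passed. In monosomes it was 1.74 ± 0.49 for ELIP (limma adjusted p = 0.213) and -0.39 ± 0.54 for CRY3 (limma adjusted p = 0.789), where 0.0575% of all transcripts passed. The point estimates for ELIP were thus positive in both ribosome fractions and negative in total RNA.

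**Figure D3:**
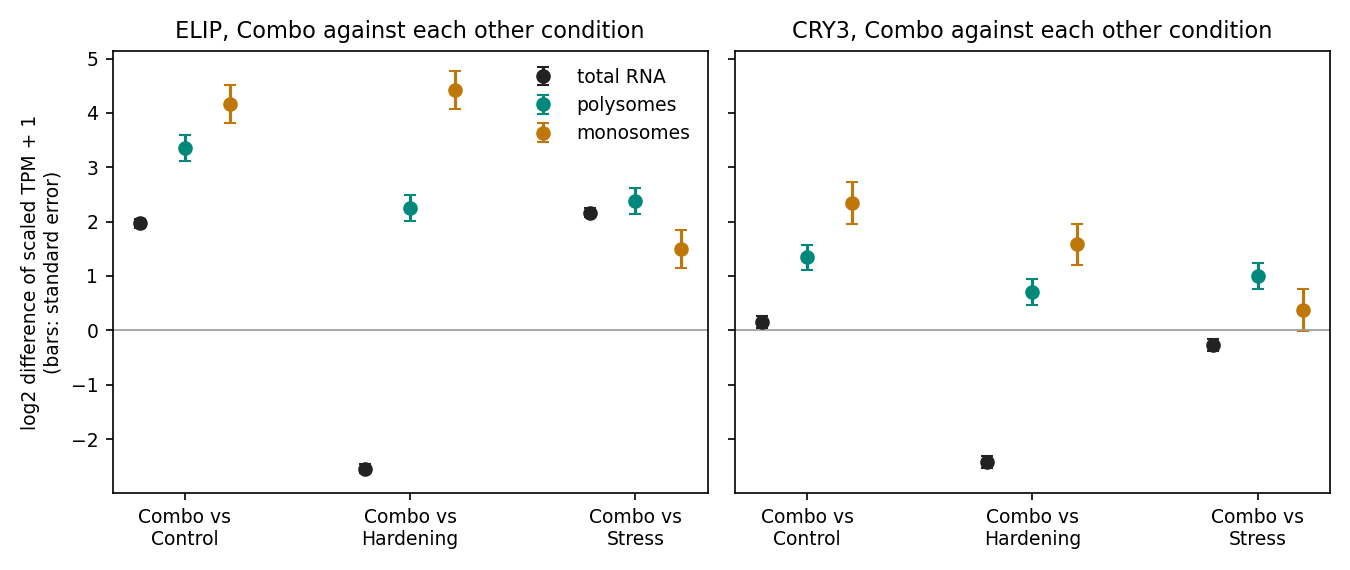
Log2 difference of scaled TPM + 1 between Combo and each other labelled condition, for ELIP and CRY3 in total RNA, polysomes and monosomes, with bars for the standard error of the limma fit. Against Hardening the points lie below 0 in total RNA (-2.54 and -2.42) and above 0 in both ribosome fractions, and the total RNA points are a description because those libraries chose the genes.

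In monosomes Combo was again highest, but libraries labelled Stress were high as well. ELIP was at 503 and 1065 TPM in Combo, 228 and 268 TPM in libraries labelled Stress, 14.8 and 17.6 TPM in those labelled Hardening, and 12.2 and 14.2 TPM in Control. The Combo libraries differed from each other more than in any other group of ELIP, yet both lay above the Stress libraries, and Hardening and Control lay far lower. ELIP rose in Combo against Control by 4.17 ± 0.35 (SE, limma adjusted p = 0.000353), where 26% of the 17379 transcripts tested rose. It rose in Combo against Hardening by 4.42 ± 0.35 (limma adjusted p = 0.000446), where 13.5% rose, and in Stress against Control by 2.68 ± 0.35 (limma adjusted p = 0.00156), where 22.8% rose. It also rose in Stress against Hardening by 2.93 ± 0.35 (limma adjusted p = 0.00151), where 13.4% rose. Combo against Stress was 1.49 ± 0.35 (95% interval 0.66 to 2.32, limma adjusted p = 0.385) in a contrast where 0.00575% of all transcripts, 1 of 17379, passed. Hardening against Control was -0.25 ± 0.35 (95% interval -1.08 to 0.57, limma adjusted p = 0.668), where 10.3% passed, and 0.27 on TPM as deposited.

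CRY3 in monosomes fell into the same high and low pairs of conditions. It was at 11.7 and 16.8 TPM in Combo, 10.9 and 9.05 TPM in libraries labelled Stress, 1.62 and 1.99 TPM in those labelled Hardening, and 0.853 and 0.242 TPM in Control. Combo and Stress did not overlap with Hardening and Control, whose levels are near the lower limit kept for testing. CRY3 rose in Combo against Control by 2.34 ± 0.38 (SE, limma adjusted p = 0.00335) and in Stress against Control by 1.97 ± 0.38 (limma adjusted p = 0.00695). It rose in Combo against Hardening by 1.58 ± 0.38 (limma adjusted p = 0.0219), a call that was lost without any one of the 4 libraries of the contrast (1.33 to 1.80, adjusted p = 0.0738 to 0.149). Stress against Hardening was 1.21 ± 0.38 (95% interval 0.30 to 2.11, limma adjusted p = 0.0519) and 1.97 on TPM as deposited. Combo against Stress was 0.37 ± 0.38 (95% interval -0.53 to 1.28, limma adjusted p = 1), and Hardening against Control was 0.76 ± 0.38 (95% interval -0.14 to 1.67, limma adjusted p = 0.239).

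The share of a transcript on polysomes relative to total RNA, which the study calls the translational ratio, could be tested for Control and Stress. In libraries labelled Stress, ELIP was higher in polysomes than in total RNA by a log2 difference of 0.76 ± 0.18 (SE, limma adjusted p = 0.00366), inside the fold threshold, where 47.6% of the 20080 transcripts tested passed in either direction. In Control it was lower in polysomes, by -0.54 ± 0.18 (limma adjusted p = 0.0355), also inside the threshold, where 21.6% passed. The ratio of ELIP rose in Stress against Control by 1.30 ± 0.26 (limma adjusted p = 0.00163), in a contrast where 21.4% of all transcripts rose. LE25 was at 497 to 583 TPM in the polysomes labelled Stress but at 0.925 to 1.43 TPM in Stress total RNA. The 2 sides of the Stress ratio may therefore not come from the same condition, and this was not tested. CRY3 did not pass, with -0.07 ± 0.19 in Stress (limma adjusted p = 0.769), -0.14 ± 0.19 in Control (limma adjusted p = 0.579) and 0.08 ± 0.27 for Stress minus Control (95% interval -0.53 to 0.68, limma adjusted p = 0.838). The value for ELIP in Stress was -0.0061 on TPM as deposited, and in Control it was -2.18.

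As a description, the same ratio was 1.06 ± 0.18 (SE) for ELIP and 1.32 ± 0.19 for CRY3 in Combo, and -3.89 ± 0.18 for ELIP and -1.90 ± 0.19 for CRY3 in Hardening. Both members thus lay above 0 in Combo and far below 0 in Hardening. The Hardening values set total RNA of hardened leaves against polysome libraries whose label goes against LE25 and CBF1. Set against the polysomes labelled Stress instead, the Hardening level of ELIP in total RNA, a mean of 2433 TPM, would stand beside 80.7 TPM, close to the 86.2 TPM of the polysomes labelled Hardening. For CRY3 the Hardening mean of 33.0 TPM in total RNA would stand beside 3.30 TPM, against 4.12 TPM in the polysomes labelled Hardening. All these levels are TPM as deposited, with no scaling between the fractions. Under either label the polysome mean of both members was the lower one, and the part of the labels in this was not tested.

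Between the ribosome fractions the balance of the members differed by condition. ELIP was higher in polysomes than in monosomes in libraries labelled Hardening, by a log2 difference of 1.89 ± 0.32 (SE, limma adjusted p = 0.00348), where 7.19% of the 17642 transcripts tested were higher in polysomes. In libraries labelled Stress the difference was -1.11 ± 0.32 (95% interval -1.82 to -0.41, limma adjusted p = 0.0550), where 6.64% passed in either direction, and -1.61 on TPM as deposited. In Combo it was -0.35 ± 0.32 (95% interval -1.05 to 0.36, limma adjusted p = 1), where 0.363% passed, and in Control 0.35 ± 0.32 (95% interval -0.35 to 1.06, limma adjusted p = 0.476), where 16.2% passed. For CRY3 the difference was -0.40 ± 0.32 in Combo (limma adjusted p = 1), -0.93 ± 0.32 in Stress (limma adjusted p = 0.09999), 0.54 ± 0.32 in Hardening (limma adjusted p = 0.311) and 0.52 ± 0.32 in Control (limma adjusted p = 0.271), and none passed.

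**Figure D4:**
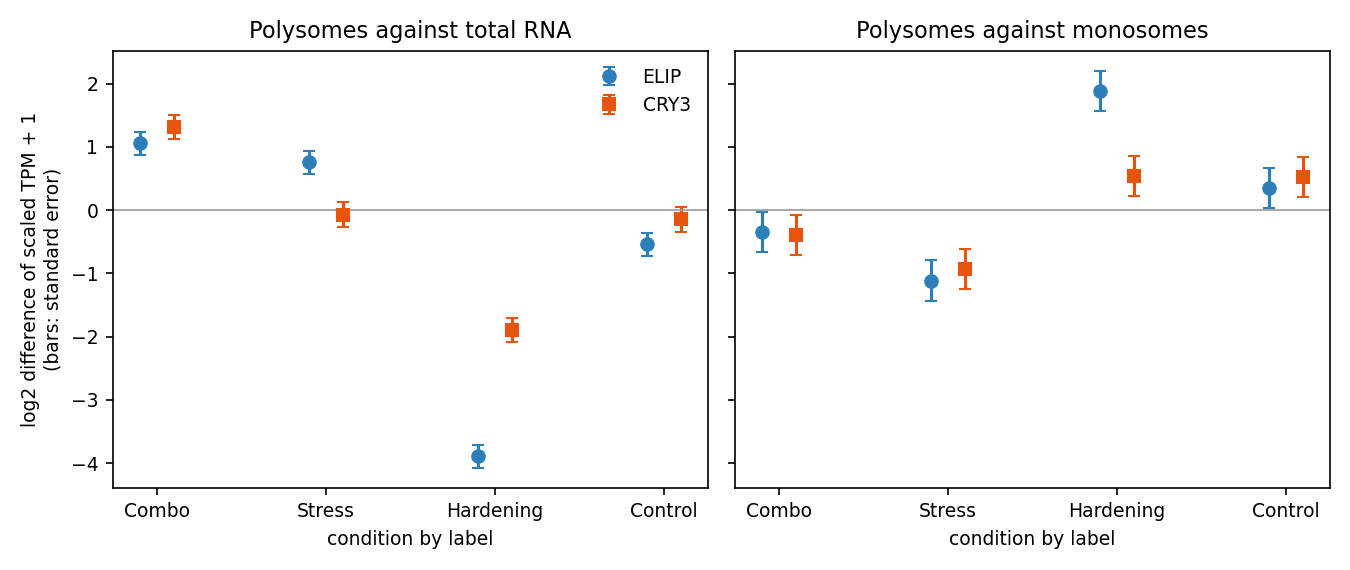
Log2 difference of scaled TPM + 1 for ELIP (circles) and CRY3 (squares) by labelled condition, polysomes against total RNA on the left and polysomes against monosomes on the right, with bars for the standard error of the limma fit. Against total RNA both genes lie above 0 in Combo (1.06 and 1.32) and far below 0 in Hardening (-3.89 and -1.90), which is a description, and ELIP alone rises in Stress against Control.

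The level of ELIP relative to CRY3 separated Combo from Control in total RNA and polysomes. The ratio of their TPM was 73.9 and 84.3 in Combo, 13.1 and 14.9 in Stress, 67.7 and 80.0 in Hardening, and 22.6 and 22.6 in Control in total RNA. In polysomes it was 56.2 and 55.9 in Combo, 16.7 and 38.5 in libraries labelled Stress, 21.0 and 20.9 in those labelled Hardening, and 22.8 and 13.8 in Control. In monosomes it was 43.2 and 63.4 in Combo, 20.9 and 29.6 in libraries labelled Stress, 9.12 and 8.86 in those labelled Hardening, and 14.3 and 58.6 in Control, where the second value rests on the lowest CRY3 level of all libraries. Outside that library, Combo was above Stress and Control in every fraction, and above Hardening in both ribosome fractions.

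No other gene with an ELIP symbol was in the table, and the other cryptochromes did not share the Hardening peak of CRY3. Cry1b, a blue-light receptor, was at 2.15 and 2.14 TPM in Combo, 31.1 and 32.8 TPM in Stress, 4.03 and 5.03 TPM in Hardening, and 26.1 and 31.0 TPM in Control in total RNA. It was low in both hardened groups, and fell in Combo against Control by a log2 difference of -3.49 and in Hardening against Control by -2.72 (limma adjusted p = 2.48e-06 and 7.76e-06). In Stress against Control it differed by 0.02 (limma adjusted p = 0.935). Cry1b also fell in Combo against Control in polysomes, by -2.83, and in monosomes, by -1.78 (limma adjusted p = 0.000185 and 0.00284), where CRY3 rose. The main transcript of CRY1A, the other CRY1-type receptor, was at a mean of 26.5 TPM in Combo, 43.5 in Stress, 32.3 in Hardening and 36.7 in Control, and that of CRY2 at 16.0, 25.3, 17.5 and 24.6 TPM. Neither passed the fold threshold in total RNA in Combo against Control, Combo against Hardening, Stress against Control or Hardening against Control.

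Among photoreceptor and light signalling genes other than CRY3, 15 genes carried a symbol, with 19 transcripts tested in total RNA. In Combo against Control 1 rose and 3 fell (16.7% and 19.0% of all transcripts), and in Hardening against Control 1 rose and 3 fell (14.5% and 16.3%). In Combo against Hardening 0 rose and 2 fell (1.91% and 2.27%), and in Stress against Control 0 rose and 0 fell (2.09% and 2.10%). These counts of 0 are from limma. At an unadjusted limma p under 0.05, 0 transcripts were higher and 6 lower in Combo against Hardening, and 3 were higher and 0 lower in Stress against Control. Of all 21979 transcripts, 6744 and 6586 had such a p in these 2 contrasts, in either direction. The median log2 difference of the list was -0.51, -0.15, -0.12 and 0.10 in these contrasts, and that of all transcripts 0.07, 0.06, -0.00248 and -0.04. The transcript that rose in both contrasts with Control was HY5, a transcription factor that promotes light-induced genes. HY5 and 1 transcript of PHOT2, a phototropin, were those that fell in Combo against Hardening. In Combo against Control 3 rose and 3 fell of 15 tested in polysomes (21.8% and 17.7% of all transcripts), and 4 rose and 2 fell of 16 tested in monosomes (26.0% and 14.0% of all), shares near those of all transcripts.

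HY5 was also among the transcripts most like ELIP. Its level in total RNA was 13.8 and 13.9 TPM in Combo, 4.73 and 6.44 TPM in Stress, 45.8 and 51.4 TPM in Hardening, and 3.22 and 3.77 TPM in Control, taken from low to high within each group. As for ELIP, Hardening was highest and Combo lay between Hardening and Control. In polysomes HY5 was at 11.8 to 18.7 TPM in Combo, 11.0 to 14.2 TPM in libraries labelled Stress, 3.94 to 4.43 TPM in those labelled Hardening and 1.14 to 2.26 TPM in Control. Here Combo and Stress overlapped, unlike for ELIP. In monosomes HY5 was at 19.7 to 24.6 TPM in Combo and 33.6 to 33.8 TPM in libraries labelled Stress. It was at 0.761 to 2.26 TPM in those labelled Hardening and 0 to 1.84 TPM in Control. Stress thus lay above Combo, where for ELIP both Combo libraries lay above those labelled Stress.

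Of the photoprotection and carotenoid genes other than ELIP, 27 transcripts were tested in total RNA. In Combo against Control 4 rose and 6 fell, close to the 16.7% and 19.0% of all transcripts, and in Hardening against Control 7 rose and 3 fell, where 14.5% and 16.3% of all did. Those 7 included several transcripts of 1 gene, Psy1, named below (log2 differences of 1.04 to 3.12), and so stand for fewer genes. In Combo against Hardening 1 rose and 4 fell, where 1.91% and 2.27% of all did, and in Stress against Control 2 rose and 1 fell, where 2.09% and 2.10% of all did. In Combo against Hardening those that fell were VDE and ZEP, which interconvert the xanthophylls violaxanthin and zeaxanthin, PSBS, which is needed for rapid heat dissipation, and 1 transcript of CCD1B, a carotenoid cleavage enzyme. Their log2 differences were -1.99, -1.002, -1.05 and -1.62. NCED1, of abscisic acid synthesis, was the member that rose, by 1.07. In Stress against Control 1 low transcript of Psy1, a phytoene synthase gene, rose by 1.71, at a mean of 4.02 TPM in Stress and 0.512 TPM in Control, while the other 3 transcripts of Psy1 had differences of -0.52 to 0.45 and did not pass. NCED1 rose by 1.04 and CrtR-b2, a carotene hydroxylase, fell by 1.49 on the log2 scale. The median of the list was -0.47 in Combo against Hardening and 0.04 in Stress against Control, and that of all transcripts -0.00248 and -0.04.

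The chlorophyll a/b-binding genes, relatives of ELIP in protein sequence, went the other way. All 15 of 15 tested fell in Combo against Control (19.0% of all transcripts), with a median log2 difference of -6.00, and in Hardening against Control (16.3%), with -5.38. In Combo against Hardening 0 rose and 0 fell (1.91% and 2.27% of all), and likewise in Stress against Control (2.09% and 2.10%). The medians there were -0.27 and -0.00228, and counts of 0 among 15 are near those shares. At an unadjusted p under 0.05 in limma, 1 was higher and 9 lower in Combo against Hardening, and 2 higher and 2 lower in Stress against Control. Such a p was reached in either direction by 6744 and 6586 of all 21979 transcripts in these contrasts. In Combo against Control all 15 also fell in polysomes and in monosomes (17.7% and 14.0% of all, medians -6.48 and -4.82), where ELIP rose. Of 12 cold regulator transcripts, 3 rose and 0 fell in Combo against Hardening (1.91% and 2.27% of all transcripts), with a median of 0.73, and 0 were lower at an unadjusted p under 0.05 in limma. In Stress against Control 2 of them rose and 1 fell (2.09% and 2.10% of all), CBF1 rising by 3.99 and 1 transcript of ERF-H14 by 2.04, while TAS14, a dehydrin, fell by 1.44 on the log2 scale.

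The transcripts whose pattern over the 8 total RNA libraries was most like that of each member were sought among 1010 named transcripts with a mean of at least 10 TPM. For ELIP they were hqt, of chlorogenic acid synthesis (Pearson r = 0.996), HY5 (0.984), GRAS24, a GRAS-family regulator (0.978), F3H, the flavanone 3-hydroxylase gene (0.977), and ABCI2, an ABC transporter gene (0.977). Over the 16 polysome and monosome libraries their r with ELIP was 0.836, 0.762, 0.552, 0.771 and 0.839 in that order. For CRY3 they were CRTISO-L1, a carotenoid isomerase-like gene (0.989), AP2c, an AP2-type regulator (0.977), ZDS, a carotene desaturase (0.950), TIL, a temperature-induced lipocalin (0.946), and CrtR-b1, a carotene hydroxylase (0.940). Over the ribosome fractions their r with CRY3 was 0.658, 0.397, 0.199, 0.520 and -0.521. ELIP and CRY3 had r = 0.868 with each other in total RNA and 0.893 in the ribosome fractions. By that measure CRY3 took place 113 for ELIP, and ELIP took place 14 for CRY3. All these r are descriptions over libraries that form 4 groups of 2 in total RNA, among them the Hardening and Combo libraries that chose the members. Of the 5 names, 1 was kept for ELIP and 2 for CRY3 with Spearman's rho, and 3 for each on TPM as deposited.

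**Figure D5:**
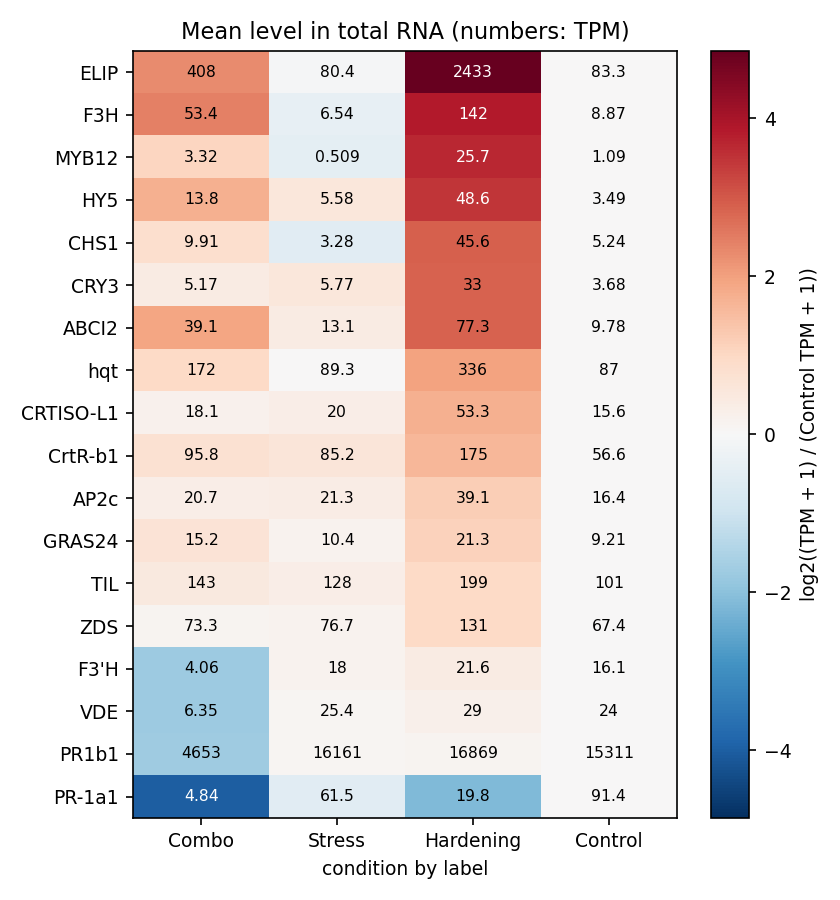
Mean TPM in total RNA by labelled condition (numbers) for ELIP, CRY3, the transcripts most like them and those with the next largest falls in Combo against Hardening, coloured by the log2 ratio of mean TPM + 1 to that of Control. ELIP, F3H, MYB12, HY5, CHS1 and CRY3 peak in Hardening, whereas VDE, F3'H and PR1b1 are only slightly highest there and stand apart by their low Combo level.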

How the data were processed

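RNA of tomato leaves was sequenced from 24 libraries. The deposited values are TPM, which the authors estimated per transcript with kallisto 0.50.0. No counts are in the table, so limma 3.58.1 in R 4.3.3 took the place of the planned count test. TPM of each fit were scaled by an unweighted trimmed mean that drops, at both ends, 30% of transcripts by log ratio and 5% by mean level, filtered at a mean of 1 and taken as log2 with a pseudocount of 1. Fits held 8 libraries of 1 fraction or 16 of a pair of fractions, with a trended empirical Bayes variance and Benjamini-Hochberg adjustment over all transcripts. Scripts were tested on simulated data. Identifiers were matched without version to the names of RefSeq assembly SLM_r2.1 (34881 paired), and no coordinates are given. The column names call the 2 libraries of a group biological replicates and the methods call them technical, so p-values measure only the spread between these libraries. The members, lists, tests and alternatives were chosen with earlier results of these data known. Named were the members, other CRY genes, the 5 transcripts most like each member, clock genes, list members called in Stress against Control, and, after their values were seen, neighbours of the members by rank and other called list members. Alternatives changed scaling, pseudocount, filter, replicate block, libraries fitted, transcript sums and variance trend, or left out each library. Promoter and protein sequences were not analysed here.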

Additional observations from a re-analysis of the deposited data

Results flagged for a closer look

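ELIP differed between Stress and Control in its level in polysomes relative to total RNA. The log2 difference of polysomes against total RNA was 0.76 ± 0.18 (SE) in Stress and -0.54 ± 0.18 in Control, and the test of the difference between them gave 1.30 ± 0.26 (95% interval 0.72 to 1.87, limma adjusted p = 0.00163). Without any one of the 8 libraries it ranged from 1.01 to 1.56. LE25 was at 497 to 583 TPM in the polysome libraries labelled Stress and at 0.925 to 1.43 TPM in total RNA of Stress, and the part of that mismatch in the result was not tested.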

How the results depend on the processing

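Of 745 values of 60 results under other settings, 664 kept their direction and side of the threshold or stayed within the spread of the libraries. In total RNA Combo against Hardening moved for CRY3 with a pseudocount of 0.1, to -2.62, and ranged from -2.51 to -2.38 without one library. Other differences of total RNA moved on TPM as deposited and with the 10 most abundant transcripts left out: Combo against Control to 2.28 and 2.17 (ELIP) and to 0.40 and 0.32 (CRY3), and Hardening against Control to 4.85 and 4.75 (ELIP) and to 2.86 and 2.80 (CRY3). On TPM as deposited the polysome values that newly passed were Hardening against Control 1.36 (CRY3), Stress against Control 2.13 (ELIP) and 1.08 (CRY3), and Combo against Hardening 1.16 (CRY3). So did Stress against Hardening in monosomes for CRY3 (1.97), polysomes against monosomes in Stress (-1.61 for ELIP, -1.38 for CRY3) and polysomes against total RNA in Control (-2.18 for ELIP, -1.23 for CRY3). The signs of Hardening against Control in monosomes (0.27) and of polysomes against total RNA in Stress (-0.0061) turned for ELIP. With the 10 most abundant transcripts left out, Stress against Control in polysomes (1.68, ELIP), Combo against Hardening in polysomes (1.11, CRY3), Stress against Hardening in monosomes (1.96, CRY3), polysomes against monosomes in Stress (-1.20, ELIP) and polysomes against total RNA in Control (-1.21, ELIP) passed, Combo against Stress in polysomes (0.98, CRY3) no longer did, and Stress against Hardening in polysomes turned (0.42 for ELIP, 0.13 for CRY3). Hardening against Control in polysomes lost its call for ELIP with a pseudocount of 0.1 (1.11), no filter (1.09), no trend (1.09), only the groups of the contrast (1.09) and the replicate block (1.09). Combo against Hardening in monosomes lost its call for CRY3 with a pseudocount of 0.1 (1.90) and no filter (1.58). With only the groups of the contrast, Stress against Control in polysomes (1.17, ELIP) and Stress against Hardening in monosomes (1.23, CRY3) passed and Combo against Stress in polysomes (0.97, CRY3) did not. With transcripts summed by gene, Combo against Hardening minus Stress against Control in polysomes (1.30, ELIP), Stress against Hardening in monosomes (1.21, CRY3) and polysomes against monosomes in Stress (-1.115, ELIP) passed and Combo against Stress in polysomes (0.98, CRY3) did not. Without one library, ELIP ranged from 1.03 to 1.63 for Hardening against Control, from 0.74 to 1.52 for Stress against Control and from -0.35 to 0.10 for Stress against Hardening in polysomes, and from -0.93 to 0.18 for polysomes against monosomes in Combo. CRY3 ranged from 0.72 to 1.27 for Combo against Stress in polysomes, from 1.33 to 1.80 for Combo against Hardening and from -0.84 to 0.0105 for Combo against Hardening minus Stress against Control in monosomes, from -0.36 to 0.25 for polysomes against total RNA in Stress and from -0.23 to 0.39 for its difference from Control. The lists were not refitted under other scalings, and on TPM as deposited the median of all transcripts in total RNA was 0.33 in Hardening against Control, 0.32 in Combo against Control, 0.08 in Stress against Control and -0.02 in Combo against Hardening. The cause of these changes was not tested. Combo against Control kept its call for both members in both ribosome fractions under every setting run. The labels do not say what a replicate number marks. Deviations of same-numbered libraries had r of 0.22 to 0.29 over the 6 pairs of conditions in total RNA, -0.04 to 0.03 in polysomes and -0.19 to 0.12 in monosomes, so in total RNA these libraries deviated together, with only 2 numbers to judge by. The replicate block changed no other call among the 60 results, and in total RNA it took the adjusted p of CRY3 in Stress against Control to 0.0144.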
